A study of Mus musculus with 9 samples.

Results

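The genes described are 8 effector and receptor genes of basophils and mast cells, chosen by name: Mcpt8, Prss34 and Cd200r3, taken as basophil-restricted, and Cpa3, Ms4a2, Fcer1a, Hdc and Kit, taken as shared with mast cells. They are 8 of the 2810 genes that the deposited tables list in any comparison. The names were chosen with the values of these libraries known, so their levels, fold changes and limma calls are given as a description and are not evidence of a difference. RNA was sequenced from Sca-1+/CD31+ endothelial progenitor cells (EPCs) of mouse bone marrow, from male (M-EPC), female (F-EPC) and ovariectomized female (OVX-EPC) C57BL/6J mice, with 3 libraries per group and 9 in all. The mice were 8 weeks old, and the ovaries had been removed at about 35 days of age. In all 3 groups lineage-positive cells had been depleted, Sca-1 and CD31 had been selected on magnetic beads, and the cells had then been grown in EGM-2 medium without added estrogen. The study's methods speak of biological replicates, but no label ties the libraries to separate animals, so p-values measure only the spread between these libraries.

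Basophils and mast cells are granulocytes that carry the high-affinity IgE receptor FcεRI. When antigen crosslinks the bound IgE, they release stored proteases and histamine and then make lipid mediators and cytokines. Basophils mature in the bone marrow and circulate, whereas mast cells leave as progenitors and mature in tissues under stem cell factor, the ligand of KIT. Both arise from progenitors that use GATA1 and GATA2.

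All 8 genes were listed in the table of M-EPCs against F-EPCs, which holds 2093 genes, and in the table against OVX-EPCs, which holds 1317. None of the 8 is listed in the comparison of F-EPCs with OVX-EPCs, which holds 811 genes. The deposited value is a normalized count, the reads on a gene divided by a size factor of the library, and whole reads could be recovered from 100% of the values. The libraries held between 1602317 and 2070442 reads on the genes listed for M-EPCs against F-EPCs, and the total depth is not known because only selected genes were used here. M-EPC library 3 was the shallowest, with a size factor of 0.836. OVX-EPC values were put on the scale of the M-EPC and F-EPC values through the M-EPC libraries that both tables hold. In bulk RNA, fewer cells of a type and less RNA per cell cannot be told apart. Of the selection markers, Pecam1, which encodes CD31, had mean normalized counts of 487 in M-EPCs, 157 in F-EPCs and 363 in OVX-EPCs, so its transcript was present in every group. Ly6a, which encodes Sca-1, had means of 259 in M-EPCs, 575 in F-EPCs and 231 in OVX-EPCs.

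The promoters of 4 of the genes are shown because they hold, or lack, the letters that GATA factors bind. Each is the stretch of 250 bases upstream of the RefSeq start on GRCm38.p6, written 5′ to 3′ along the gene, with matches on either strand in capitals, which are the letters AGATAA or TGATAA and the same letters with a final G, as AGATAG or TGATAG. Prss34 is on the plus strand at chr17:25298144-25298393, Cpa3 on the minus strand at chr3:20242182-20242431, Fcer1a on the minus strand at chr1:173227230-173227479 and Kit on the plus strand at chr5:75574737-75574986.
Prss34: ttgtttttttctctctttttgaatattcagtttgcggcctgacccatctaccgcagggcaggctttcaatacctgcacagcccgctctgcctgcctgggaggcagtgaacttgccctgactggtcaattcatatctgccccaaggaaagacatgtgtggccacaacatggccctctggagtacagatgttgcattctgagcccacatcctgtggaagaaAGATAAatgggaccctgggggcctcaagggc
Cpa3: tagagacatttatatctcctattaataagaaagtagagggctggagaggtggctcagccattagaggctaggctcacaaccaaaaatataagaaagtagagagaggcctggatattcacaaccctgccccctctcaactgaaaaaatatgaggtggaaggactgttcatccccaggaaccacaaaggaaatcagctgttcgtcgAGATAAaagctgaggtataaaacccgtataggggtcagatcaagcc
Fcer1a: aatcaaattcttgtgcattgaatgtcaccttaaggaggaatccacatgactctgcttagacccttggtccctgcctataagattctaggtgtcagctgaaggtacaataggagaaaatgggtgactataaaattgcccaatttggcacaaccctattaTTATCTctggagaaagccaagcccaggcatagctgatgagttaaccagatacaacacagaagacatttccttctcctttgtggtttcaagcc
Kit: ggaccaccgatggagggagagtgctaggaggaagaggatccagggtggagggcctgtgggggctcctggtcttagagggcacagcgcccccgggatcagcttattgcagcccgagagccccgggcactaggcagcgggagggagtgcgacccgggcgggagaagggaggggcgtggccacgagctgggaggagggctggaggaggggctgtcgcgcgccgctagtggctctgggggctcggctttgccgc
The last 28 bases of the Cpa3 stretch and the last 3 of the Fcer1a stretch lie inside the longer annotated gene models.

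The granule protease genes had between 0 and 11 reads per library in M-EPCs and were plainly present in F-EPCs and OVX-EPCs. Mcpt8 (chr14:56082163-56085499, minus strand) encodes mast cell protease 8, which despite its name marks mouse basophils. No M-EPC library had a read on Mcpt8, which allows up to 3 reads in each. The F-EPC libraries 1, 2 and 3 had 63, 48 and 49 reads on Mcpt8, or 63.6, 46.5 and 46.4 normalized counts. The OVX-EPC libraries had 85, 62 and 88 reads on Mcpt8, or 80.1, 57.2 and 83.0 normalized counts. Every F-EPC and OVX-EPC library was thus above every M-EPC library, while OVX-EPC library 2 lay among the F-EPC libraries. Against a floor of 3 reads per M-EPC library, the mean of Mcpt8 in F-EPCs was at least 17.1-fold higher, and that in OVX-EPCs at least 24.1-fold higher.

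Prss34 (chr17:25298394-25300168, plus strand) encodes the serine protease mast cell protease 11, which basophils secrete. It had the highest normalized counts of the 8 genes in F-EPCs and OVX-EPCs. The M-EPC libraries had 4, 8 and 1 reads on Prss34, or 3.81, 7.18 and 1.20 normalized counts. In F-EPCs the normalized counts of Prss34 were 210.0, 224.7 and 206.6, and in OVX-EPCs they were 379.7, 431.8 and 369.9. M-EPCs were lowest, and F-EPCs and OVX-EPCs did not overlap on the authors' size factors, although their order turned with other scalings given below. The mean of Prss34 was 4.06 ± 3.003 in M-EPCs, 213.8 ± 9.58 in F-EPCs and 393.8 ± 33.3 in OVX-EPCs (SD, n = 3 each). The ratio of means was 52.6 for F-EPCs over M-EPCs and 96.9 for OVX-EPCs over M-EPCs. Without M-EPC library 3 these ratios were 38.9 and 71.7. Without M-EPC library 2 the M-EPC mean fell under the floor, and with M-EPC library 3 raised to 3 reads the ratios were 57.8 and 106.5.

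Cpa3 (chr3:20215616-20242209, minus strand) encodes carboxypeptidase A3, a granule exopeptidase of mast cells that basophils also transcribe. The M-EPC libraries had 4, 11 and 0 reads on Cpa3, or 3.81, 9.88 and 0 normalized counts. The F-EPC libraries had 60.6, 71.7 and 88.1 normalized counts of Cpa3, and the OVX-EPC libraries had 76.3, 119.9 and 96.2. F-EPCs and OVX-EPCs overlapped, and both lay above all M-EPC libraries. The mean of Cpa3 was 16.1-fold higher in F-EPCs and 21.4-fold higher in OVX-EPCs than in M-EPCs, and 10.7-fold and 14.2-fold higher without M-EPC library 3. Without M-EPC library 2, and with library 3 raised to 3 reads, it was 19.9-fold and 26.4-fold higher.

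**Figure D1:**
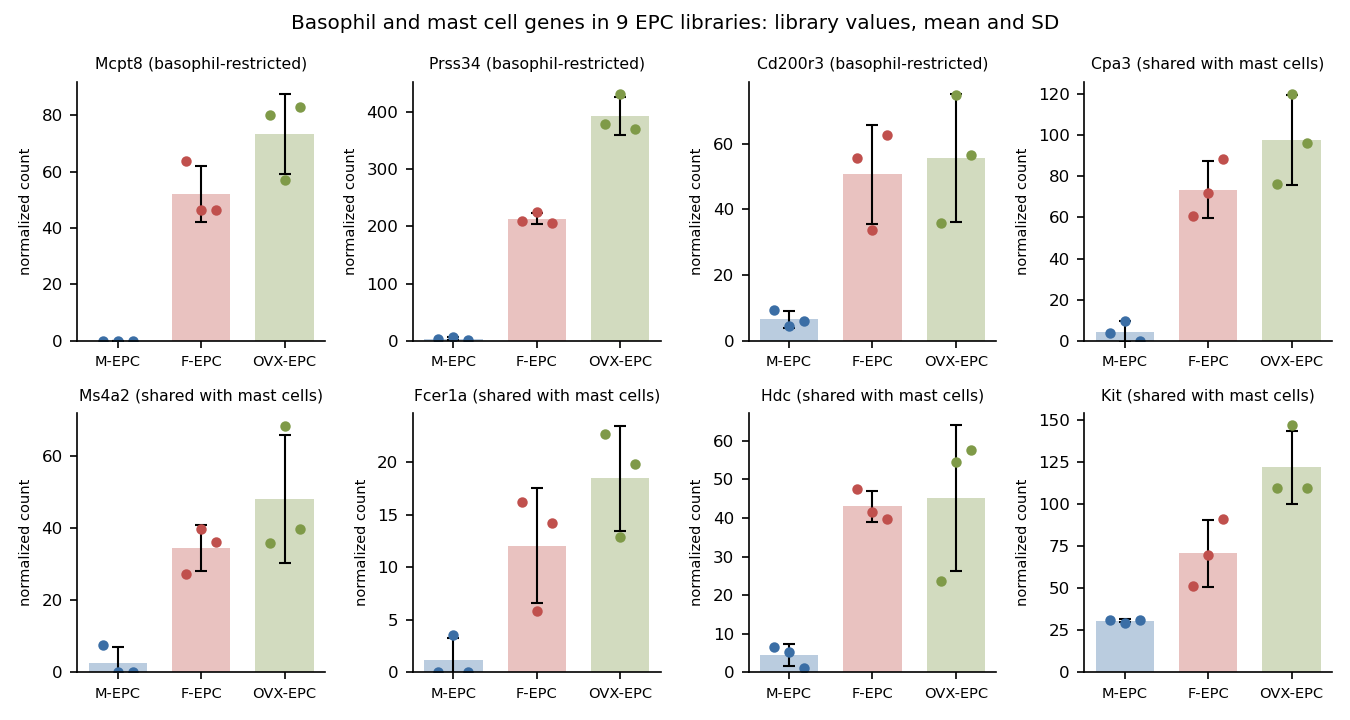
Normalized counts (vertical axes, from 0, each with its own range) of the 8 genes in the 9 libraries by group. Points are libraries 1 to 3 from left to right, bars are means and error bars are SD (n = 3), and in each of the 8 panels all M-EPC points lie below all F-EPC and OVX-EPC points.

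The genes of the receptor chains had few reads, and Fcer1a had the fewest of the 8 genes in F-EPCs and OVX-EPCs. Fcer1a (chr1:173221269-173227232, minus strand) encodes the FcεRI α chain, which binds IgE. Its reads were 0, 4 and 0 in M-EPCs, 16, 6 and 15 in F-EPCs and 24, 14 and 21 in OVX-EPCs. The groups did not overlap with M-EPCs, but F-EPC library 2, with 6 reads, was close to M-EPC library 2, with 4. The mean normalized count of Fcer1a was 1.20 ± 2.07 in M-EPCs, 12.1 ± 5.50 in F-EPCs and 18.4 ± 4.99 in OVX-EPCs (SD, n = 3 each). Ms4a2 (chr19:11615517-11623790, minus strand) encodes the β chain, which amplifies the signal of the receptor. Its reads were 8, 0 and 0 in M-EPCs, 27, 41 and 38 in F-EPCs and 38, 74 and 42 in OVX-EPCs. A single M-EPC library held all reads on each chain, and it was library 2 for Fcer1a and library 1 for Ms4a2. The M-EPC means of both chains were under the floor of 3 reads per library, so the M-EPC libraries below it were set to it for the ratios. Set against the floor in this way, the mean of Fcer1a was 3.61-fold higher in F-EPCs and 5.52-fold higher in OVX-EPCs than in M-EPCs. For Ms4a2 these ratios were 7.41 and 10.3.

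Hdc (chr2:126593659-126624025, minus strand) encodes histidine decarboxylase, the enzyme that makes histamine. Its normalized counts were 6.66, 5.39 and 1.20 in M-EPCs, 47.5, 41.6 and 39.8 in F-EPCs and 23.6, 54.4 and 57.6 in OVX-EPCs. OVX-EPC library 1 was below all F-EPC libraries and the other OVX-EPC libraries were above them. The means of Hdc in F-EPCs and OVX-EPCs were 9.73-fold and 10.2-fold that in M-EPCs. Cd200r3 (chr16:44943596-45058365, plus strand) encodes an activating receptor of the CD200 receptor family that is used as a basophil marker and is also found on mast cells. Its family has close paralogs, so reads may be shared between them. The normalized counts of Cd200r3 were 9.52, 4.49 and 5.98 in M-EPCs, 55.5, 33.9 and 62.6 in F-EPCs and 35.8, 74.7 and 56.6 in OVX-EPCs. The gene was detected in every M-EPC library, with between 5 and 10 reads, unlike Mcpt8. The ratio of means of Cd200r3 was 7.60 for F-EPCs and 8.36 for OVX-EPCs over M-EPCs.

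Kit (chr5:75574987-75656722, plus strand) encodes the receptor of stem cell factor, which mast cells keep and which early hematopoietic progenitors also carry. It was the only one of the 8 genes with more than 11 reads in any M-EPC library, with 33, 33 and 26 reads, or 31.4, 29.6 and 31.1 normalized counts. The normalized counts of Kit were 51.5, 69.7 and 91.0 in F-EPCs and 109.3, 146.7 and 109.5 in OVX-EPCs. M-EPCs were again lowest, and F-EPCs and OVX-EPCs did not overlap on the authors' size factors. The ratio of means of Kit was 2.30 for F-EPCs and 3.97 for OVX-EPCs over M-EPCs, the smallest among the 8 genes in both.

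In each comparison the limma fit used log2(normalized count + 1) of all listed genes, and a call needed an adjusted p-value below 0.05 together with a log2 fold change of 1 or more in either direction. All 8 genes were called lower in M-EPCs than in F-EPCs, where 49.3% of the 2093 listed genes were called lower and 49.6% were lower without overlap between the libraries. All 8 were also called lower with OVX-EPCs as the reference, where 58.0% of the 1317 listed genes were called lower and 58.0% were lower without overlap. At a log2 fold change of 2 or more in size, 7 of the 8 were called lower in each, without Kit, beside 20.7% of genes against F-EPCs and 34.5% against OVX-EPCs. Nothing is read from these counts, since the genes were chosen with these comparisons known and the tables hold only genes past the authors' screen. The median log2 fold change of the 8 genes was -3.65 with F-EPCs as the reference and -4.04 with OVX-EPCs, beside -0.99 and -1.26 over all listed genes, and both medians of the 8 stayed the same with Mcpt8 set at its bound. That bound could not move them, since Mcpt8 stayed below the median. The medians depend on the pseudocount of 1, with which several of the single fold changes moved, as given below. When DESeq2 set the size factors from each table's own genes, the median log2 fold change of all listed genes moved by -0.35 against F-EPCs and by 0.62 against OVX-EPCs. Of all limma calls, 62.8% against F-EPCs and 48.4% against OVX-EPCs then had M-EPCs lower, beside 50.5% and 58.7% on the authors' size factors, and the 8 genes were still called. The ratio of OVX-EPC over M-EPC means was then 61.8 for Prss34, 13.5 for Cpa3, 6.60 for Hdc, 5.45 for Cd200r3 and 2.57 for Kit, each over 1.5 times smaller than on the authors' size factors. In the 1288 genes with values in all 9 libraries, every M-EPC library lay below every other library for 38.5%, and for all 8 genes described.

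With a pseudocount of 1, the log2 fold change of M-EPCs against F-EPCs ran from -5.60 (SE 0.48) for Prss34 to -1.14 (SE 0.22) for Kit among the 7 genes with reads in M-EPCs. It was -4.30 (SE 0.89) for Cpa3, -4.09 (SE 0.91) for Ms4a2, -3.21 (SE 0.50) for Hdc, -2.87 (SE 0.73) for Fcer1a and -2.76 (SE 0.34) for Cd200r3. Against OVX-EPCs it ran from -6.49 (SE 0.48) for Prss34 to -1.94 (SE 0.17) for Kit. Genes with M-EPC libraries at 0 depended on the pseudocount. Between pseudocounts of 0.1 and 5 the log2 fold change against F-EPCs went from -6.32 to -2.52 for Ms4a2, from -5.06 to -1.45 for Fcer1a and from -5.53 to -3.16 for Cpa3, and at 0.1 Ms4a2 was lower than Prss34 (-6.00). The widest errors belonged to Cpa3 and Ms4a2, whose reads differed most between M-EPC libraries on this scale. Without M-EPC library 1, the log2 fold change of Ms4a2 against F-EPCs was -5.13. Without M-EPC library 2, that of Fcer1a was -3.60 and that of Cpa3 was -5.07, and without M-EPC library 3 that of Cpa3 was -3.35. Kit was no longer called against F-EPCs without F-EPC library 3, with a log2 fold change of -0.94. The comparisons with F-EPCs and with OVX-EPCs share the 3 M-EPC libraries.

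**Figure D2:**
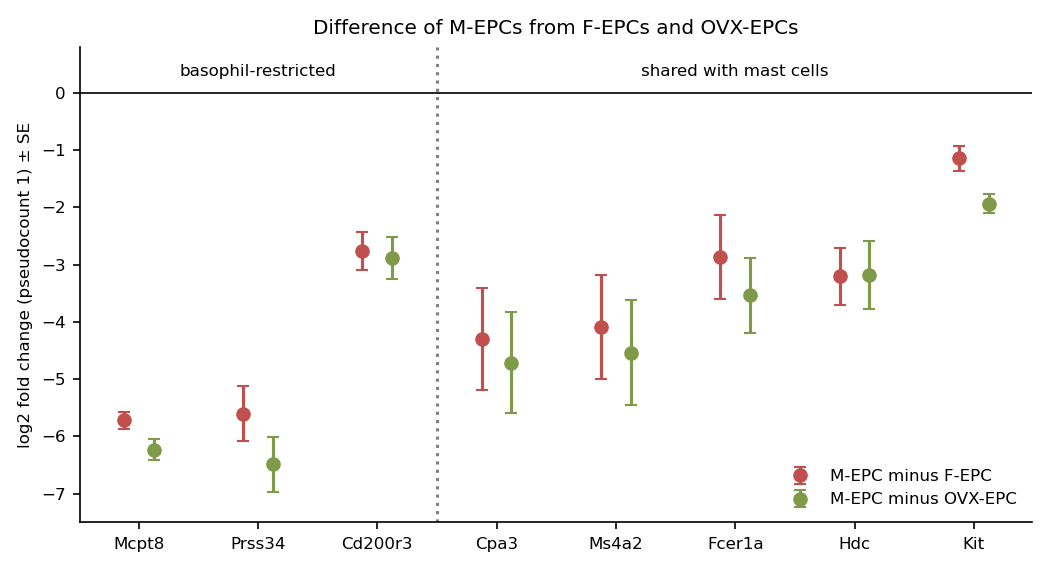
Log2 fold change of the normalized count plus 1 (vertical axis), with its standard error from limma, for M-EPCs minus F-EPCs and M-EPCs minus OVX-EPCs. All 16 points lie below 0, with Prss34 and Mcpt8 lowest and Kit nearest to 0, and the places of Mcpt8, Ms4a2, Fcer1a and Cpa3, which had M-EPC libraries without a read, depend on the pseudocount of 1.

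Summed over their members, the basophil-restricted genes differed more between the groups than the genes shared with mast cells. The sum of Mcpt8, Prss34 and Cd200r3 was 10.7 ± 3.18 normalized counts in M-EPCs, 316.6 ± 12.1 in F-EPCs and 523.0 ± 36.0 in OVX-EPCs (SD, n = 3 each). The sum of Cpa3, Ms4a2, Fcer1a, Hdc and Kit was 43.4 ± 9.66 in M-EPCs, 233.6 ± 33.4 in F-EPCs and 330.9 ± 67.7 in OVX-EPCs. The restricted sum was thus 29.5-fold higher in F-EPCs than in M-EPCs and the shared sum 5.38-fold higher. In OVX-EPCs the same ratios over M-EPCs were 48.8 and 7.62. The restricted sum divided by the shared sum, which no size factor changes, was 0.269, 0.241 and 0.222 in the M-EPC libraries, 1.62, 1.33 and 1.17 in F-EPCs and 1.85, 1.40 and 1.58 in OVX-EPCs. On this ratio F-EPCs and OVX-EPCs overlapped, and both lay above M-EPCs.

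This contrast between the classes rested largely on Prss34 and Kit. Prss34 made up between 35.3% and 42.1% of the reads on the 8 genes in F-EPC libraries and between 44.4% and 49.8% in OVX-EPC libraries. Kit made up between 49.3% and 78.8% of those reads in M-EPC libraries, but between 9.68% and 15.6% in F-EPC libraries and between 13.2% and 15.2% in OVX-EPC libraries. Without Prss34 the restricted sum was 15.4-fold higher in F-EPCs than in M-EPCs, and without Kit the shared sum was 12.8-fold higher. In OVX-EPCs those ratios were 19.4 and 16.4. Cd200r3, in the restricted class, had a smaller ratio than Cpa3 in both comparisons, so the classes overlapped gene by gene. The ratio of Cd200r3 was also smaller than that of Hdc, but this order rested on M-EPC library 3, with 1 read on Hdc. Without that library the ratio of F-EPCs over M-EPCs was 7.23 for Cd200r3 and 7.13 for Hdc. The order then turned for OVX-EPCs over M-EPCs as well. The median log2 fold change was -5.60 for the restricted genes and -3.21 for the shared genes against F-EPCs, a difference of 2.40. With Mcpt8 at its bound the difference was 0.89. Against OVX-EPCs the difference was 2.70, and 1.06 with Mcpt8 at its bound.

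F-EPCs and OVX-EPCs could be compared for these genes only as levels. On the authors' size factors the OVX-EPC mean was above the F-EPC mean for 8 of the 8 genes, but for 0 of them after TMM scaling over the listed genes of F-EPCs and OVX-EPCs, and for 5 after TMM scaling over the 1288 genes with 9 values. No direction between F-EPCs and OVX-EPCs is therefore drawn from the levels. On the authors' size factors the ratio of OVX-EPC over F-EPC means was 1.84 for Prss34, 1.72 for Kit, 1.53 for Fcer1a, 1.41 for Mcpt8, 1.40 for Ms4a2, 1.33 for Cpa3, 1.10 for Cd200r3 and 1.05 for Hdc. Every OVX-EPC library was above every F-EPC library for Prss34 and Kit and not for the other 6, beside 37.7% of the 496 genes with 9 values that were lowest in M-EPCs. For Hdc the mean log2 difference was -0.03 (SE 0.41), although the mean normalized count was higher in OVX-EPCs.

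Per kilobase of exon, the order of the genes differed between F-EPCs and M-EPCs. The length counted all exons of a gene's transcripts, so it can exceed that of the main transcript. It was 8911 bases for Kit, 6389 for Hdc and 5984 for Cd200r3, beside 998 for Mcpt8 and for Fcer1a. In F-EPCs Prss34 stood first, with a mean of 175.2 normalized counts per kilobase and libraries between 169.4 and 184.1. Mcpt8 followed with 52.3 per kilobase and Cpa3 with 48.4, and their libraries overlapped. Ms4a2 (12.2), Fcer1a (12.1), Cd200r3 (8.47), Kit (7.94) and Hdc (6.73) came next in mean normalized counts per kilobase, each overlapping its neighbour in the order. In M-EPCs the mean per kilobase was 3.45 for Kit, 3.33 for Prss34 and 3.01 for Cpa3, with overlapping libraries, and at most 1.20 for the other 5 genes. The order in M-EPCs rests on few reads for every gene but Kit.

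Across the 9 libraries the 8 genes varied together, which the choice of genes partly fixes. Pearson's r of log2 normalized counts plus 1 lay between 0.739 for Ms4a2 with Fcer1a and 0.983 for Mcpt8 with Prss34 over the 28 pairs, all of which share the same libraries. Of the other 1280 genes with 9 values, those with the highest mean r with the 8 genes were Mmrn1 (0.953), Gp5 (0.952), Ctsg (0.952), Clca3a1, Selp, Rab27b, Myct1, Pde3a, Spib and Tmem154 (0.949). Gp5 and Selp encode platelet glycoprotein V and P-selectin, Mmrn1 encodes multimerin 1 of platelets and endothelium, and Ctsg encodes the granule protease cathepsin G. Selp had a mean of 1.87 ± 1.90 normalized counts in M-EPCs, 163.4 ± 1.02 in F-EPCs and 256.2 ± 4.56 in OVX-EPCs (SD, n = 3 each). Tmem154 alone among these 10 genes had more than 21 reads in an M-EPC library, with a mean of 778 normalized counts beside 1824 in F-EPCs.

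Hexamers bound by GATA factors lay within the 250 bases upstream of the RefSeq start in 6 of the 8 genes, and Mcpt8 and Kit had no match. Such a match was present in 26.5% of 32851 mouse promoters of the same length, in 20.9% of those of genes listed in any table and in 23.1% of those of genes lowest in M-EPCs. The match of Prss34 lay between 31 and 26 bases before the start and that of Cpa3 between 46 and 41 bases before it, as the capitals in the sequences above mark. Cd200r3 and Ms4a2 each had 3 matches, of which the nearest lay 33 to 28 and 11 to 6 bases before the start. Prss34, Cd200r3, Cpa3 and Ms4a2 thus had a match in the last 50 bases, a window chosen after the positions were seen, which held one in 4.83% of all promoters. The RUNX letters TGTGGT or TGCGGT, on either strand, were in 4 of the 8 promoters and in 18.6% of all. The STAT letters TTCNNNGAA were in 0 of the 8 and in 7.0% of all. The annotated gene models of Mcpt8 and Hdc reach past the whole stretch, and those of Cd200r3 and Ms4a2 reach 82 and 71 bases into it, so distances there depend on the start used. These matches are letters only, and no binding was measured.

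**Figure D3:**
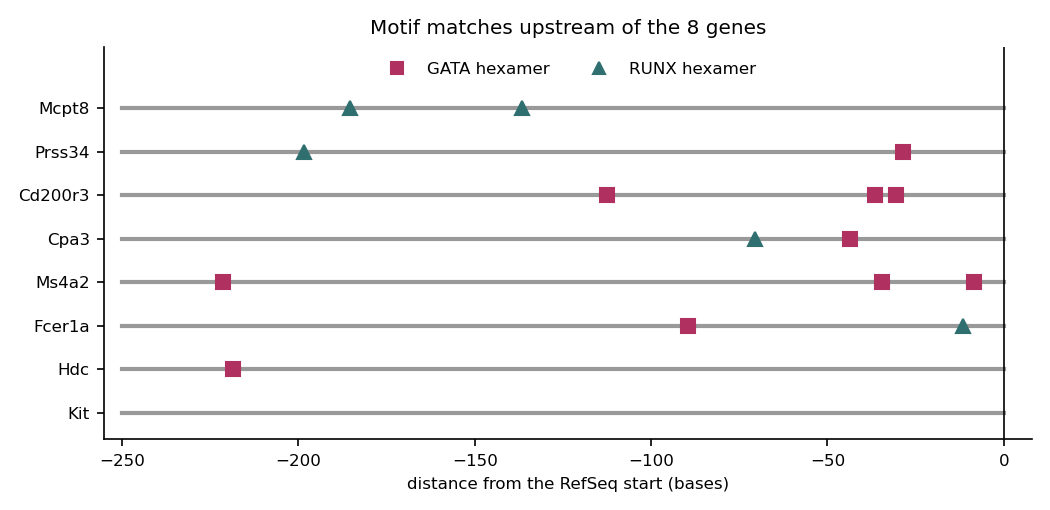
Places of GATA hexamers (squares) and RUNX hexamers (triangles) by distance in bases from the RefSeq start (0) in the 250 bases upstream of each of the 8 genes. Prss34, Cd200r3, Cpa3 and Ms4a2 each have a square within 50 bases of the start, Cd200r3 and Ms4a2 each have another farther out, and the line for Kit is empty.

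Of 20 lineage transcription factors of basophils and mast cells, 5 were listed against F-EPCs, with 4 lower and 1 higher in M-EPCs, and 5 were listed against OVX-EPCs, all lower. All of these were called by limma, which called 49.3% of the listed genes lower and 48.4% higher in M-EPCs with F-EPCs as the reference, and 58.0% lower and 40.8% higher with OVX-EPCs. With DESeq2 size factors 4 were called lower in each comparison and none higher, without Ikzf2 and Bhlhe41. GATA2 drives basophil and mast cell differentiation, and its transcript had at most 5 reads in any M-EPC library. The mean normalized count of Gata2 was 1.497 ± 2.59 in M-EPCs, 102.9 ± 10.8 in F-EPCs and 134.9 ± 20.54 in OVX-EPCs (SD, n = 3 each). Gata1, which also serves megakaryocytes and erythroid cells, had a mean of 1.57 ± 1.99 in M-EPCs, 73.9 ± 31.7 in F-EPCs and 130.3 ± 23.4 in OVX-EPCs. Both genes thus had M-EPC libraries at or near the floor, like the proteases. Gfi1b, which encodes a repressor of the same lineages, had at most 1 read in an M-EPC library, so that F-EPCs were at least 19.3-fold higher and OVX-EPCs at least 30.4-fold higher. Tal1, a partner of the GATA factors, was less extreme, with means of 89.3 ± 18.3 in M-EPCs, 237.9 ± 32.8 in F-EPCs and 283 ± 31.5 in OVX-EPCs. Ikzf2 was the factor higher in M-EPCs than F-EPCs, with a log2 fold change of 1.21 (SE 0.15), and is named after its value was seen.

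**Figure D4:**
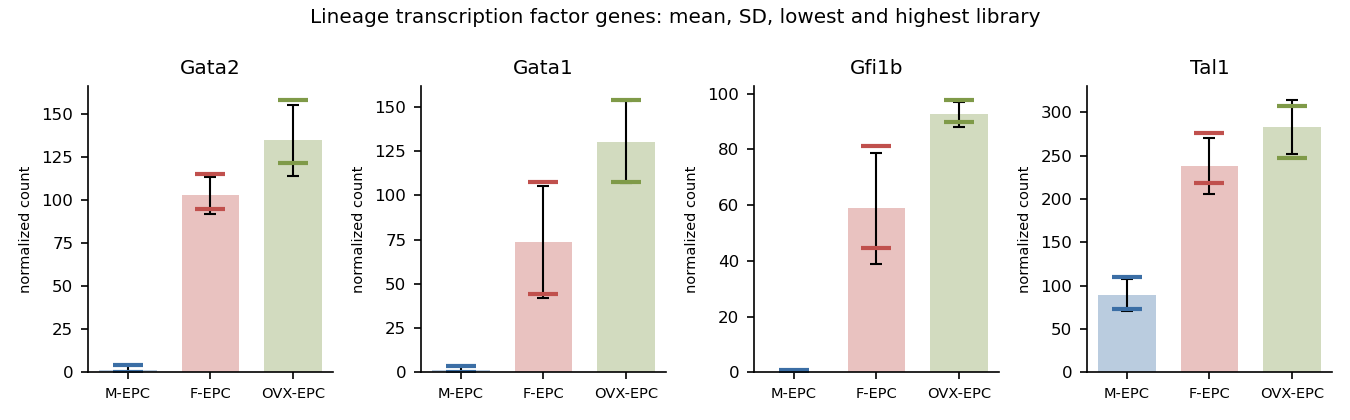
Normalized counts (vertical axes, from 0) of 4 lineage transcription factor genes by group, as mean (bar), SD (black, n = 3) and lowest and highest library (coloured dashes). Gata2, Gata1 and Gfi1b are near 0 in M-EPCs, where Tal1 has a mean of 89.3.

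Of 33 genes that signal below FcεRI, 6 were listed against F-EPCs, with 5 lower and 1 higher in M-EPCs, and 4 against OVX-EPCs, all lower. All of these were called by limma. It called 49.3% of all listed genes lower and 48.4% higher in M-EPCs against F-EPCs, and 58.0% and 40.8% against OVX-EPCs. Lat, the adaptor on which the receptor's signal is assembled, had a log2 fold change of -4.05 (SE 0.47) against F-EPCs, and of -4.96 (SE 0.46) with OVX-EPCs as the reference. Rab27b, a GTPase of granule release, had -5.02 (SE 0.22) and -5.60 (SE 0.27). The adaptor Grap2 had -1.73 (SE 0.28) and -2.84 (SE 0.18). Both adaptors are also used by T cells and platelets. Fcgr2b, the inhibitory IgG receptor, went the other way against F-EPCs, with a log2 fold change of 1.73 (SE 0.08) and a mean of 14652 normalized counts in M-EPCs beside 4422 in F-EPCs. Its mean in OVX-EPCs, 12822, was nearer to that in M-EPCs, and Fcgr2b was not listed against OVX-EPCs.

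Of 31 other genes of basophils, 7 were listed in each comparison with M-EPCs, all called lower in M-EPCs, beside 49.3% of all genes listed against F-EPCs and 58.0% of those listed against OVX-EPCs. With DESeq2 size factors 6 of the 7 were called against OVX-EPCs, without Il1rl1. Against F-EPCs the log2 fold change was -5.38 (SE 0.47) for the water and glycerol channel Aqp9, -1.55 (SE 0.09) for the chemokine Ccl9, -1.55 (SE 0.19) for the integrin Itga2, which encodes CD49b, and -1.14 (SE 0.18) for the eotaxin receptor Ccr3. Against OVX-EPCs it was -3.54 (SE 0.52) for Aqp9, -2.28 (SE 0.20) for Itga2 and -2.07 (SE 0.32) for Il18r1, a chain of the interleukin 18 receptor. Il18rap, its partner chain, had -1.21 (SE 0.27) against F-EPCs and -1.65 (SE 0.23) against OVX-EPCs. In the comparison of F-EPCs with OVX-EPCs, Ccl9, Ccr3 and Aqp9 were called higher in F-EPCs and Il18r1 lower, whereas none of the 8 effector genes was listed. Of all genes listed there, 30.8% were called higher and 67.3% lower in F-EPCs, so that 68.6% of the calls were lower, against 36.3% with TMM. The log2 fold change there was 1.38 (SE 0.12) for Ccl9, 1.998 (SE 0.24) for Ccr3, 1.85 (SE 0.29) for Aqp9 and -1.78 (SE 0.26) for Il18r1, on the authors' size factors. TMM scaling shifted the median of the genes listed there by 1.13 towards F-EPCs. Il18r1 was then no longer called, with -0.67 (SE 0.28), whereas Ccl9, Ccr3 and Aqp9 remained called higher in F-EPCs, with 2.51, 3.12 and 2.96. Ccr3 was not lowest in M-EPCs, with mean normalized counts of 124.2 there beside 69.1 in OVX-EPCs, where the highest library had 91.3.

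Of 21 proteases and granule genes of mast cells other than the 8 genes, 2 were listed against F-EPCs and 1 against OVX-EPCs. Ctsg had at most 1 read in an M-EPC library, so that F-EPCs were at least 6.74-fold higher and OVX-EPCs at least 11.1-fold higher. It is also a neutrophil granule gene and lies within 500 kb of Mcpt8. Srgn, which encodes the granule proteoglycan serglycin of many blood cells, was higher in M-EPCs than F-EPCs, with a log2 fold change of 1.16 (SE 0.13), and is named after its value was seen. The other 19 genes of that list are in no table used here, and nothing is drawn from this, since a gene at a steady level or too low to test would be missing alike.

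Of 18 genes of histamine and lipid mediators, 3 were listed against F-EPCs, with 2 lower and 1 higher in M-EPCs, and 4 against OVX-EPCs, with 2 lower and 2 higher. All were called on the authors' size factors, beside 49.3% of all genes listed against F-EPCs called lower and 58.0% against OVX-EPCs. Alox5, the lipoxygenase at the head of leukotriene synthesis, had a log2 fold change of -1.59 (SE 0.21) against F-EPCs and -1.55 (SE 0.21) against OVX-EPCs, where it was not called with DESeq2 size factors. Alox15 had no read in any M-EPC library, so that F-EPCs were at least 6.10-fold higher and OVX-EPCs at least 7.15-fold higher. Hrh2, the histamine H2 receptor, was higher in M-EPCs, with 1.65 (SE 0.16) and 1.35 (SE 0.21), so the receptor and the histamine-making enzyme Hdc went in opposite directions. Of 20 genes of the KIT axis and of progenitors, 7 were listed against F-EPCs and 6 against OVX-EPCs, all called lower in M-EPCs, where 49.3% and 58.0% of all listed genes were called lower. Angpt1, the angiopoietin 1 gene, had log2 fold changes of -4.26 (SE 0.12) and -4.69 (SE 0.20), and Myb, a progenitor transcription factor, had -2.09 (SE 0.35) and -2.61 (SE 0.25).

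**Figure D5:**
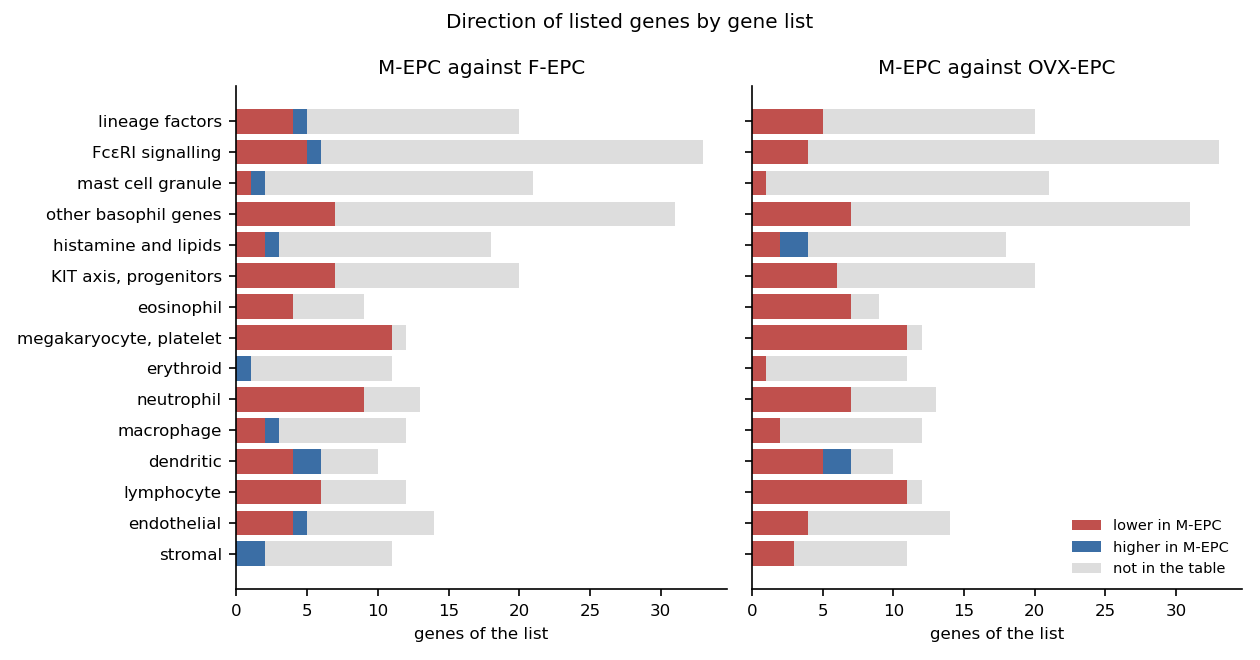
Number of genes (horizontal axis) in 6 lists on basophil and mast cell pathways and 9 lists of markers of other cells, split into those lower in M-EPCs, higher in M-EPCs and not in the table, for each comparison of M-EPCs. Megakaryocyte and platelet markers have 11 of 12 genes lower in M-EPCs in both panels, and most genes of the pathway lists are in neither table.

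Most listed markers of other blood cells were lower in M-EPCs like the 8 genes, and some were higher. Their part in the result was not tested. Sums are over the markers with values in all 9 libraries, and some markers, such as Ccr3, Ctsg and Flt3, stand on a pathway list as well. Every marker listed in a comparison with M-EPCs was called by limma. It called 49.3% of all listed genes lower and 48.4% higher in M-EPCs against F-EPCs, and 58.0% and 40.8% against OVX-EPCs. With DESeq2 size factors C1qa was no longer called against F-EPCs. Against OVX-EPCs the calls of Mmp8, Ngp, Il5ra, Itgax, Cd79b, Nkg7, Ncr1 and Col1a1 were then lost. Megakaryocyte and platelet markers were lower in M-EPCs for 11 of 12 genes in both comparisons, and their summed normalized counts lay between 1486 and 1596 in M-EPCs, between 11321 and 11680 in F-EPCs and between 14542 and 15522 in OVX-EPCs. Neutrophil markers were lower for 9 of 13 genes against F-EPCs and for 7 of 13 in the other comparison, and summed to between 173 and 238 in M-EPCs, between 1173 and 1179 in F-EPCs and between 629 and 638 in OVX-EPCs. Eosinophil markers were lower for 4 of 9 genes and 7 of 9 genes, with Epx and Ear6 at 0 in every M-EPC library, and summed to between 114 and 142 in M-EPCs, between 357 and 449 in F-EPCs and between 209 and 226 in OVX-EPCs. Ccr3 made up most of the M-EPC sum, with a mean of 124.2 there and a lower one, 69.1, in OVX-EPCs. Prg2 had means of 5.33 in M-EPCs, 109.3 in F-EPCs and 128.2 in OVX-EPCs. M-EPCs were thus lowest in the megakaryocyte, neutrophil and eosinophil sums. Mmp8 was the largest part of the neutrophil sum, with means of 103.7 in M-EPCs, 483.7 in F-EPCs and 311.1 in OVX-EPCs. The neutrophil markers S100a8 and Ltf had means of 36.7 and 10.6 in M-EPCs but 26.9 and 5.01 in OVX-EPCs, with overlapping libraries. Lymphocyte markers were lower for 6 of 12 and 11 of 12 genes, with Klrb1c at 0 in M-EPCs, and summed to between 2212 and 2446 in M-EPCs, between 3699 and 3946 in F-EPCs and between 8846 and 9676 in OVX-EPCs. Cd4, not listed against F-EPCs, made up most of that sum, and without it the sum lay between 202 and 244, 409 and 485, and 813 and 856 in the same order of groups. Dendritic cell markers had 4 lower and 2 higher of 10 against F-EPCs and 5 lower and 2 higher against OVX-EPCs, with Cd209a at 0 in M-EPCs. Their sum went the other way, between 53748 and 54776 in M-EPCs, between 1398 and 1673 in F-EPCs and between 8600 and 8736 in OVX-EPCs. H2-Aa and H2-Ab1, class II genes that other antigen-presenting cells also express, carried that sum. Without them the other 4 markers summed to at most 3.81 in M-EPCs, between 126.9 and 166.6 in F-EPCs and between 120.6 and 144.4 in OVX-EPCs. Endothelial markers had 4 lower and 1 higher of 14 against F-EPCs and 4 lower against OVX-EPCs, and summed to between 795 and 833 in M-EPCs, between 2931 and 2971 in F-EPCs and between 4054 and 4377 in OVX-EPCs. Vwf made up most of that sum in F-EPCs and OVX-EPCs, with means of 232 in M-EPCs, 2351 in F-EPCs and 3376 in OVX-EPCs. Pecam1 went the other way and was highest in M-EPCs, with 487, 157 and 363 in the same order. Against F-EPCs, 2 macrophage markers were lower and 1 higher in M-EPCs, and the listed erythroid (1) and stromal (2) markers were higher. Against OVX-EPCs all listed macrophage (2), erythroid (1) and stromal (3) markers were lower in M-EPCs.

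The genes lie on 8 different chromosomes, so no pair of them shares a neighbourhood. Within 500 kb, listed protein-coding neighbours moved in either direction. Beside Mcpt8, Adcy4 was higher in M-EPCs, with a log2 fold change of 5.44 (SE 0.35) with F-EPCs as the reference and 1.45 (SE 0.29) against OVX-EPCs. Beside Ms4a2, Ms4a1, which encodes CD20 of B cells, was lower in M-EPCs, with -1.87 (SE 0.28) and -2.53 (SE 0.31). Beside Kit, Kdr, which encodes VEGF receptor 2, was lower in M-EPCs, with -2.38 (SE 0.12) and -2.45 (SE 0.16), and Pdgfra was higher in M-EPCs than F-EPCs, with 2.41 (SE 0.44). Beside Cpa3, the ceruloplasmin gene Cp was higher in M-EPCs, with 2.04 (SE 0.09) and 1.33 (SE 0.17). These neighbours were named after their values were seen.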

How the data were processed

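RNA-seq of 3 M-EPC, 3 F-EPC and 3 OVX-EPC libraries was analysed, grouped by the sample labels. The submitters' processing notes name mm10, HISAT2, Cufflinks, Cuffnorm and DESeq, without versions. The authors deposited a table per comparison with a normalized signal per gene and library, which is the read count divided by a size factor set in each comparison, and with fold changes, p-values and adjusted p-values of their own, which were not used. Only genes that passed a fold change and FDR screen by the authors are listed. Reads were recovered within a tolerance of 0.001 of a whole number.

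The members and the gene lists were chosen with earlier results of these data known. Limma 3.58.1 in R 4.3.3 was applied to log2(normalized count + 1) in the 6 libraries of each comparison, with Benjamini-Hochberg adjustment over the listed genes. Values of the 9 libraries were joined with a factor of 0.978, from the M-EPC libraries in both tables. A library with 3 reads or fewer was taken as at the floor, which covers counting error only. Genes named besides the 8 members were up to 6 per pathway list by mean level among those listed in at least 2 of the 3 tables, and the 10 with the highest mean r with the members. Exceptions are marked, and some genes that the rule names are not reported here. Alternatives were pseudocounts of 0.1 and 5, a filter on a mean of 10, a threshold on absolute log2 fold change of 2, a replicate block, leaving out each library, and edgeR 4.0.16 with TMM and DESeq2 1.42.0 on recovered reads. EdgeR with the authors' size factors and limma on reads rescaled by TMM or DESeq2 size factors were chosen after seeing the data. On simulated data with 200 genes changed 4-fold, limma recovered 196 for M-EPCs against F-EPCs (2093 genes) and 200 for M-EPCs against OVX-EPCs (1317 genes). The simulated libraries had the same small dispersion for every gene, and the other genes were left unchanged. This recovery therefore gives no measure of the calls on genes with few, uneven reads in M-EPCs. Gene positions and promoters are from RefSeq on GRCm38.p6, the same build as mm10. Exon lengths are from GENCODE M21, counted over all exons of a gene's transcripts. All 8 genes matched by symbol. Figures were drawn with matplotlib 3.10.9.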

Additional observations from a re-analysis of the deposited data

How the results depend on the processing

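The 8 genes were called lower in M-EPCs in both comparisons under the other pseudocounts, the filter, the replicate block, edgeR and DESeq2. At a log2 fold change of 2 or more in size, and against F-EPCs without F-EPC library 3, 7 were called, and Kit was the gene lost. Leaving out each library gave 7 to 8 calls with F-EPCs and 8 with OVX-EPCs. Of 208 values of the 8 single genes under these alternatives other than the threshold of 2, 207 kept their direction and side of the threshold and 0 turned. TMM shifted the median log2 fold change of all listed genes by 0.09 against F-EPCs, by 0.20 against OVX-EPCs and by 1.13 between F-EPCs and OVX-EPCs. DESeq2 size factors shifted it by -0.35, 0.62 and 1.12, and no listed gene of the pathway and marker lists changed direction against M-EPCs with either scaling.

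The difference between the class medians, 2.40 against F-EPCs and 2.70 against OVX-EPCs, moved with the pseudocount. It was 0.94 and 1.10 with 0.1, and 1.11 and 1.59 with 5. Against F-EPCs, Mcpt8 moved from -9.01 to -3.50 between these pseudocounts, and Ms4a2, Fcer1a and Cpa3 moved as given above. Leaving out each library gave differences of 2.11 to 2.45 and of 2.21 to 2.81, and the replicate block left 2.40 and 2.70. The replicate numbers did not pair the libraries, since deviations of same-numbered libraries correlated between -0.02 and 0.03.

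The OVX-EPC mean was above the F-EPC mean for 8 genes on the authors' size factors, for 0 with TMM and for 0 with DESeq2 size factors over the listed genes of that comparison, and for 5 with TMM over the genes with 9 values. Leaving out each library gave 6 to 8. The class difference in limma fold change has no value for F-EPCs against OVX-EPCs, since no member is listed there. Reads of 0 to 11 in M-EPCs limit every ratio except that of Kit.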
